A study of Homo sapiens with 6 samples.

Results

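Bone morphogenetic proteins (BMPs) are secreted ligands of the TGF-β superfamily. They bring type I and type II receptor kinases together at the cell surface, the receptors phosphorylate SMAD1, SMAD5 and SMAD9, and these enter the nucleus with SMAD4 and switch on genes such as ID1, ID2, ID3 and the inhibitory SMAD6. Extracellular antagonists, among them gremlin 1 and follistatin, bind the ligands and keep them from the receptors, and in the lung the balance between ligand and antagonist is known to be disturbed in fibrosis. The 10 genes described here are 3 ligands (BMP2, BMP4 and BMP6), 2 receptors (BMPR1A and BMPR2), 2 SMADs (SMAD6 and SMAD9) and 3 ID genes (ID1, ID2 and ID3). They were picked by name, out of 23355 genes with a symbol in the count table, to see whether the lower levels of BMP antagonists after TAZ knockdown go along with a BMP response. All 10 were found, and all 10 passed the filter on low counts, as did 14053 genes in all.

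RNA sequencing was performed in HFL-1 cells, a human fetal lung fibroblast line, 48 h after transfection. The cells received siNTC, a control siRNA without a target, or 1 of 2 TAZ siRNAs (siTAZ #1 or siTAZ #2), with 2 replicates each. The study describes transfection in duplicate and does not say how far the replicates were independent. The model is 1 cell line with a transient knockdown. Levels are in CPM (the usual count scaled to sequencing depth, here with TMM factors). Changes are log2 fold changes with their standard error (SE) from edgeR's quasi-likelihood test in a fit of the 6 libraries, and the false discovery rate (FDR) is adjusted over the 14053 genes tested, with 0.05 as the threshold.

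The libraries held 15648055 to 32078188 counts. In siTAZ #1 replicate 2, the deepest of them, the stretch that starts at RANGAP1 on chromosome 22 and runs through chromosome Y had nearly no counts (0.248% of the library, against 3.58% to 3.75% in the other 5). None of the 10 genes (0) lies there, and the common dispersion of the fit was 0.0807 with the 579 tested genes of the stretch and 0.0165 without them. WWTR1, the gene of TAZ, was at 132 and 131 CPM in the siNTC libraries, at 26.4 and 28.4 CPM with siTAZ #1 and at 46.1 and 43.1 CPM with siTAZ #2. The fibroblast markers COL1A1, COL1A2, COL3A1, DCN, LUM, PDGFRA, PDGFRB, THY1 and VIM were all detected, while the summed level of 4 immune markers stayed at or below 0.387 CPM and that of 6 epithelial markers at or below 3.09 CPM. Of 6 endothelial markers, TEK lay between 24.0 and 44.8 CPM and VWF between 0.571 and 2.96 CPM. PECAM1, CDH5, KDR and EMCN did not exceed 0.516, 0.374, 0.644 and 0.399 CPM. The summed level of the 9 fibroblast markers was 34878 to 34966 CPM with siNTC, 23174 to 24049 CPM with siTAZ #1 and 27180 to 28939 CPM with siTAZ #2, but the markers moved in both directions. With siTAZ #1, COL1A1, COL1A2, DCN and LUM fell and PDGFRA (3.30-fold) and PDGFRB rose, and with siTAZ #2, COL1A2, COL3A1, DCN, LUM and VIM fell and PDGFRB and THY1 rose. The part of these markers in the results was not tested.

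With each siTAZ, 3 of the 10 genes rose, and with each they were BMP2, SMAD6 and ID1. BMP2 rose 15.9-fold with siTAZ #1 and 1.64-fold with siTAZ #2, SMAD6 rose 1.71-fold and 3.80-fold, and ID1 rose 1.68-fold and 1.79-fold. ID2, ID3, BMP4, BMP6, BMPR1A, BMPR2 and SMAD9 did not pass the threshold with either siRNA. Of all genes tested, 10.8% rose and 9.78% fell with siTAZ #1, and 14.1% rose and 14.4% fell with siTAZ #2. By edgeR's quasi-likelihood test, 0 of the 10 genes fell with either siRNA. At an unadjusted p under 0.05, 0 were lower with siTAZ #1 and 2 (BMPR1A and SMAD9) with siTAZ #2, and DESeq2 and edgeR's exact test on 4 libraries each called 0 lower with siTAZ #1 and 1, BMPR1A, lower with siTAZ #2. Over the 10 genes the median change was 0.15 with siTAZ #1 and 0.09 with siTAZ #2 on the log2 scale, against 0.02 and 0.01 over all genes tested. The comparisons with siNTC use the same 2 control libraries, so a gene that rises with both siRNAs has not been measured against independent controls. In bulk RNA, fewer cells of a kind and less RNA per cell cannot be told apart.

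**Figure D1:**
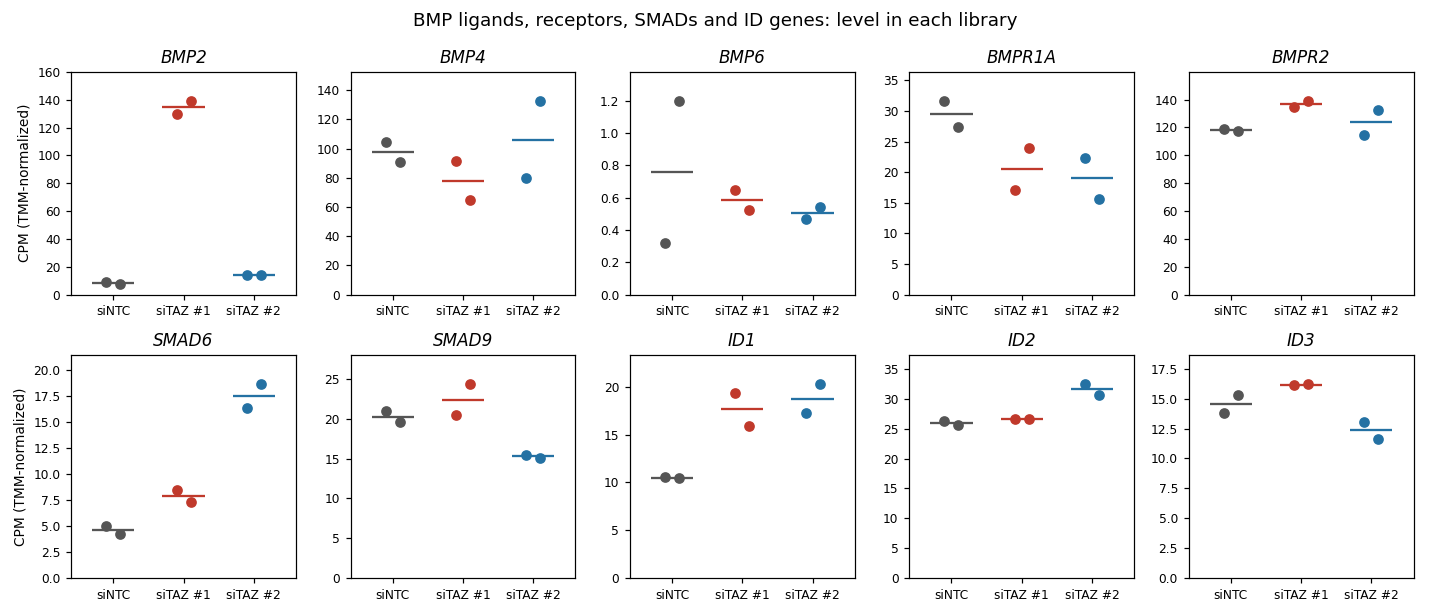
TMM-normalized CPM of the 10 genes in each library (points, replicate 1 on the left) for siNTC, siTAZ #1 and siTAZ #2, with the group mean as a line and a linear axis from 0. BMP2 stands at 130 and 139 CPM with siTAZ #1 and below 15 CPM elsewhere, and the 4 siTAZ libraries lie above both siNTC libraries for BMP2, SMAD6, ID1 and ID2.

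Among the ligands, BMP2 changed with both siRNAs, and with siTAZ #1 by more than any of the other 9 genes. BMP2, a ligand best known for inducing bone and cartilage, is encoded on chromosome 20 (6748333 to 6760893 on GRCh37, the build of all gene positions here). It was at 9.38 and 7.57 CPM in the siNTC libraries, at 130 and 139 CPM with siTAZ #1, and at 14.1 and 13.8 CPM with siTAZ #2. The 3 groups did not overlap, and the raw counts behind these levels ran from 120 and 148 in siNTC to 2014 and 4540 with siTAZ #1. On the log2 scale BMP2 rose by 3.99 after siTAZ #1 (SE 0.15, FDR 0.00044) and by 0.72 after siTAZ #2 (SE 0.14, FDR 0.014). The call with siTAZ #1 held in each of the 19 alternatives tried (log2 fold change 3.83 to 4.14), including the fit without siTAZ #1 replicate 2 (3.94). For siTAZ #2, BMP2 no longer passed when siNTC replicate 2 (log2 fold change 0.55, FDR 0.085), siTAZ #2 replicate 1 (FDR 0.069) or siTAZ #2 replicate 2 (FDR 0.070) was left out.

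BMP4, a close relative of BMP2 that shapes the budding lung and binds the same receptors, lies on chromosome 14 (54416454 to 54425479). It was at 104 and 90.7 CPM with siNTC, at 91.7 and 64.5 CPM with siTAZ #1, and at 79.7 and 133 CPM with siTAZ #2. The groups overlapped and the replicates of each siTAZ stood far apart. BMP4 had a log2 fold change of -0.32 after siTAZ #1 (SE 0.28, 95% interval -1.001 to 0.36, FDR 0.46) and of 0.12 after siTAZ #2 (SE 0.28, 95% interval -0.56 to 0.80, FDR 0.78). With siTAZ #1 replicate 2 standing alone for its group, BMP4 passed the threshold (log2 fold change -0.60, FDR 0.024). BMP6, a ligand with a role in iron balance, lies on chromosome 6 (7726332 to 7881961) and was near the limit of detection. Its raw counts were 5 and 19 with siNTC, 10 and 17 with siTAZ #1, and 10 and 9 with siTAZ #2, and a change could not be resolved at this depth (log2 fold change -0.39, SE 0.72, and -0.58, SE 0.74). Exons of BMP6 overlap TXNDC5 on the opposite strand, and the strand setting of the counting is not given in the sources used here, so these few counts cannot be assigned to BMP6 with certainty.

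The receptors did not pass the threshold. BMPR2, the type II receptor whose loss underlies heritable pulmonary arterial hypertension, lies on chromosome 2 (203241050 to 203432474). It was at 119 and 118 CPM with siNTC, 134 and 139 CPM with siTAZ #1, and 115 and 132 CPM with siTAZ #2. Both siTAZ #1 libraries were above siNTC, while the siTAZ #2 libraries lay on either side of it. Its log2 fold changes were 0.21 (SE 0.09, 95% interval -0.02 to 0.44, FDR 0.17) and 0.07 (SE 0.09, 95% interval -0.17 to 0.30, FDR 0.65), which makes BMPR2 the gene of the 10 with the narrowest intervals. BMPR1A, the type I receptor also called ALK3, lies on chromosome 10 (88516353 to 88692582). It was at 31.6 and 27.3 CPM with siNTC, 17.2 and 24.0 CPM with siTAZ #1, and 22.3 and 15.6 CPM with siTAZ #2, so each of the 4 siTAZ libraries was lower than each siNTC library. BMPR1A had a log2 fold change of -0.52 (SE 0.25, 95% interval -1.12 to 0.09, FDR 0.20) after siTAZ #1, which passed without siTAZ #1 replicate 2 (-0.78, FDR 0.020), and of -0.64 (SE 0.25, 95% interval -1.24 to -0.03, FDR 0.11) after siTAZ #2. The latter passed the threshold in 6 of 19 alternatives, among them the fit that omits the depleted stretch of chromosomes 22 to Y (FDR 0.025), the fits without siTAZ #1 replicate 1 or 2 (FDR 0.0086 and 0.0087) and DESeq2 (FDR 0.021).

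Of the SMADs, SMAD6 rose with both siRNAs and SMAD9 did not pass the threshold with either. SMAD6, an inhibitory SMAD that BMP signaling induces and that in turn blocks the type I receptors, lies on chromosome 15 (66994574 to 67075187). It was at 5.01 and 4.17 CPM with siNTC, 8.39 and 7.30 CPM with siTAZ #1, and 16.3 and 18.6 CPM with siTAZ #2. The 3 groups did not overlap, with siTAZ #2 the highest. On the log2 scale SMAD6 rose by 0.77 after siTAZ #1 (SE 0.21, FDR 0.048) and by 1.92 after siTAZ #2 (SE 0.21, FDR 0.0023). The call with siTAZ #2 held in all 19 alternatives (highest FDR 0.032), whereas that with siTAZ #1, close to the threshold, was lost in 11 of 19, with FDRs of 0.13 and 0.23 when siNTC replicate 1 or 2 was left out, 0.069 for siTAZ #1 replicate 1, 0.090 and 0.095 without siTAZ #2 replicate 1 or 2, and up to 0.29 in edgeR's exact test on 4 libraries. Without siTAZ #1 replicate 2 it was kept (log2 fold change 0.87, FDR 0.033).

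SMAD9, also called SMAD8, is phosphorylated by the BMP receptors like SMAD1 and SMAD5. It lies on chromosome 13 (37418968 to 37495024) and was at 20.9 and 19.6 CPM with siNTC, 20.5 and 24.4 CPM with siTAZ #1, and 15.5 and 15.1 CPM with siTAZ #2. The siTAZ #2 libraries were the lowest of the 6, and the siTAZ #1 libraries overlapped siNTC. SMAD9 had a log2 fold change of 0.15 after siTAZ #1 (SE 0.15, FDR 0.54) and of -0.40 with siTAZ #2 (SE 0.16, 95% interval -0.79 to -0.02, FDR 0.10).

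The ID genes encode helix-loop-helix proteins that lack a DNA-binding region and hold E proteins such as TCF3, TCF4 and TCF12 away from DNA. ID1 and SMAD6, the targets that rose, are shown here with ID3, a target that did not pass the threshold, as the 250 bases before the gene start in RefSeq (build GRCh38.p14, coding strand). Windows were available for 9 of the 10 genes, BMP2 being the exception. Each window was searched on both strands for GGCGCC, the GC-rich element bound by BMP-activated SMADs, for CAGAC, the SMAD box, and for GGAATG, the TEAD site through which TAZ binds DNA. Capitals mark a match, and no matches overlap in these windows.
ID1 (chr20:31605039-31605288, + strand): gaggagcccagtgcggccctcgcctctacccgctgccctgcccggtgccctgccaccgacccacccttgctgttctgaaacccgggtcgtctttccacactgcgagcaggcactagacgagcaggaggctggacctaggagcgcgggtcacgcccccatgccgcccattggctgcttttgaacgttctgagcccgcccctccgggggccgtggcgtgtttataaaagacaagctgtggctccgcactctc
SMAD6 (chr15:66701986-66702235, + strand): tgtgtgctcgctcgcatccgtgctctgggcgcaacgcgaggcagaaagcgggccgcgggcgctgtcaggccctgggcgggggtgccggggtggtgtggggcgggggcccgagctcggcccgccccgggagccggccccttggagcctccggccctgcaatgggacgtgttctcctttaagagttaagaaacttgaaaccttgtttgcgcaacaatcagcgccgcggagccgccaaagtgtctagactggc
ID3 (chr1:23559502-23559751, - strand): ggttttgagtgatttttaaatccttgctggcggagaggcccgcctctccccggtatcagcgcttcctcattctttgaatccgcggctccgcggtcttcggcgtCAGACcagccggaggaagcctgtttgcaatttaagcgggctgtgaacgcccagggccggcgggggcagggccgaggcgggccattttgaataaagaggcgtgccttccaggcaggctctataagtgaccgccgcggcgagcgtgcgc
The ID1 and SMAD6 windows held none of the 3 motifs (0 matches), as did those of ID2, BMP6 and SMAD9, and the ID3 window held 1 SMAD box starting 147 bases before the gene start. The BMPR2 window held 1 GC-rich element and 2 SMAD boxes, and the BMPR1A window held 1 TEAD site 92 bases before the start. Of the 3 start sites of BMP4, 1 had a GC-rich element and a SMAD box, 1 had a SMAD box alone, and 1 had no match. Over all 35116 windows, 16.4% held GGCGCC, 38.0% held CAGAC and 11.9% held GGAATG. Only these exact letters were searched, so 0 matches does not mean that a window lacks a SMAD site. Other forms, shorter or longer than CAGAC, were not counted, such as the gtctagac near the end of the SMAD6 window. These letters say nothing of more distant elements.

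ID1 (chromosome 20, 30193086 to 30194318) was at 10.6 and 10.4 CPM with siNTC, 19.4 and 15.9 CPM with siTAZ #1, and 17.2 and 20.3 CPM with siTAZ #2. All 4 siTAZ libraries were higher than siNTC, and the siTAZ groups overlapped each other. On the log2 scale ID1 rose by 0.75 after siTAZ #1 (SE 0.18, FDR 0.038) and by 0.84 after siTAZ #2 (SE 0.18, FDR 0.021). The size of the change was stable, between 0.60 and 0.95 in all alternatives for both siRNAs, but the call was not. Leaving out siNTC replicate 1 ended it for siTAZ #1 and siTAZ #2 (FDR 0.17 and 0.11), and so did leaving out siNTC replicate 2 (FDR 0.18 and 0.12), siTAZ #2 replicate 1 (FDR 0.067 and 0.058) or siTAZ #2 replicate 2 (FDR 0.073 and 0.12). It was lost under the replicate block (FDR 0.087 and 0.054), and for siTAZ #1 in the exact test as well (FDR 0.32). The call held in 11 of 19 alternatives for siTAZ #1 and in 14 of 19 for siTAZ #2. Each fit that lost it also had fewer rising genes over all genes tested. Under the replicate block, 868 genes rose with siTAZ #1 and 1329 with siTAZ #2, against 1515 and 1983 in the main fit.

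ID2 (chromosome 2, 8818975 to 8824591) was at 26.4 and 25.6 CPM with siNTC, at 26.6 CPM in each siTAZ #1 library, and at 32.5 and 30.7 CPM with siTAZ #2. All siTAZ libraries were above siNTC, by a margin of less than 1 CPM for siTAZ #1. ID2 had a log2 fold change of 0.03 after siTAZ #1 (SE 0.12, 95% interval -0.25 to 0.32, FDR 0.86) and of 0.28 with siTAZ #2 (SE 0.12, 95% interval -0.0014 to 0.57, FDR 0.12). The table also lists ID2B, a processed pseudogene of ID2, which held 9.40% to 15.2% of the summed CPM of ID2 and ID2B in the 6 libraries, and with which ID2 may share reads. The ID2 gene also overlaps an antisense transcript, ID2-AS1.

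ID3 (chromosome 1, 23884417 to 23885992) was at 13.8 and 15.3 CPM with siNTC, 16.1 and 16.2 CPM with siTAZ #1, and 13.04 and 11.7 CPM with siTAZ #2. The siTAZ #1 libraries were the highest and the siTAZ #2 libraries the lowest of the 6. The change of ID3 was 0.15 on the log2 scale after siTAZ #1 (SE 0.16, 95% interval -0.25 to 0.55, FDR 0.56) and of -0.24 with siTAZ #2 (SE 0.16, 95% interval -0.64 to 0.16, FDR 0.33). For siTAZ #2, the intervals of ID1 (0.39 to 1.29) and ID3 did not overlap, whereas for siTAZ #1 those of ID1 (0.30 to 1.20) and ID3 did.

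**Figure D2:**
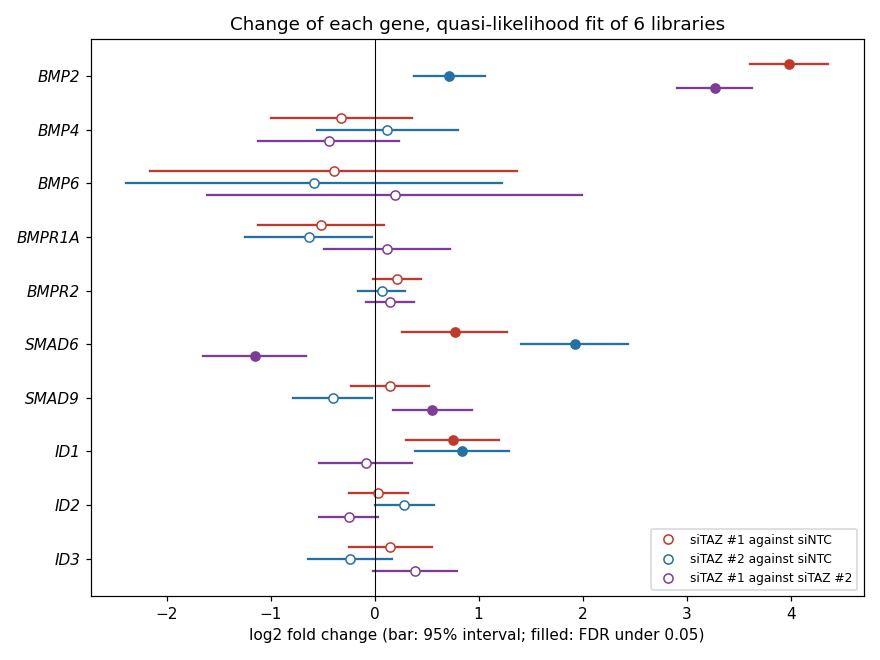
Log2 fold change of the 10 genes for siTAZ #1 against siNTC (red), siTAZ #2 against siNTC (blue) and siTAZ #1 against siTAZ #2 (purple), with 95% intervals from the quasi-likelihood fit and filled points for an FDR under 0.05. BMP2, SMAD6 and ID1 have filled points for both siRNAs, and the widest intervals belong to BMP6.

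Of the 10 genes, 4 (BMP2, SMAD6, ID1 and ID2) had the 4 siTAZ libraries above both siNTC libraries, and 1 (BMPR1A) had them below both. Of all genes tested, 18.6% and 17.5% had such a separation. A permutation of 4 libraries against 2 cannot give an exact two-sided p below 0.133, nor can 2 against 2 go below 0.333, so the tests rest on the spread shared across genes.

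The siRNAs were also compared directly, and 3 of the 10 genes differed between them. BMP2 was 9.65-fold higher with siTAZ #1 than with siTAZ #2 (log2 difference 3.27, SE 0.15, FDR 0.00050), and the call held in all 19 alternatives. SMAD6 was 2.22-fold lower with siTAZ #1 (log2 difference -1.15, SE 0.20, FDR 0.010), a call lost without siTAZ #2 replicate 2 (FDR 0.070). SMAD9 was 1.47-fold higher with siTAZ #1 (log2 difference 0.55, SE 0.16, FDR 0.045), a call lost in 13 of 19 alternatives. Among these were the fits that left out siNTC replicate 1 (FDR 0.087), siNTC replicate 2 (0.086), siTAZ #1 replicate 2 (0.14), siTAZ #2 replicate 1 (0.14) or siTAZ #2 replicate 2 (0.17), and the exact test (0.42). Of all genes tested, 15.2% were higher and 13.4% lower with siTAZ #1 than with siTAZ #2. The difference for ID1 was -0.09 (SE 0.18, 95% interval -0.53 to 0.36, FDR 0.75). BMP2 and SMAD6 ranked the siRNAs in opposite order, with BMP2 higher under siTAZ #1 and SMAD6 higher under siTAZ #2, and WWTR1 itself was lower after siTAZ #1 (log2 difference -0.70, SE 0.10, FDR 0.0050).

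To set the genes beside each other, the CPM was divided by the length of the canonical transcript. With siNTC, BMP4 was the highest at 50.5 CPM per kb, followed by ID2 (19.99), ID3 (15.3), ID1 (10.7), BMPR2 (9.79), BMPR1A (4.59), SMAD9 (3.64), BMP2 (2.39), SMAD6 (1.20) and BMP6 (0.200 CPM per kb). The ranges of the 2 siNTC libraries did not overlap between any neighbours in this order. With siTAZ #1, BMP2 moved from the eighth place to the second, at 38.0 CPM per kb (36.7 to 39.3), within the range of BMP4 (33.4 to 47.5), while ID2, ID1 and ID3 followed at 20.5, 18.0 and 17.0 CPM per kb, of which ID1 and ID3 overlapped. With siTAZ #2, the order began with BMP4 (54.99), ID2 (24.3), ID1 (19.1) and ID3 (13), so that ID1 stood above ID3 without overlap, and SMAD6 (4.55) was above BMP2 (3.93 CPM per kb). The level of a gene per length depends on the transcript assumed for it.

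**Figure D3:**
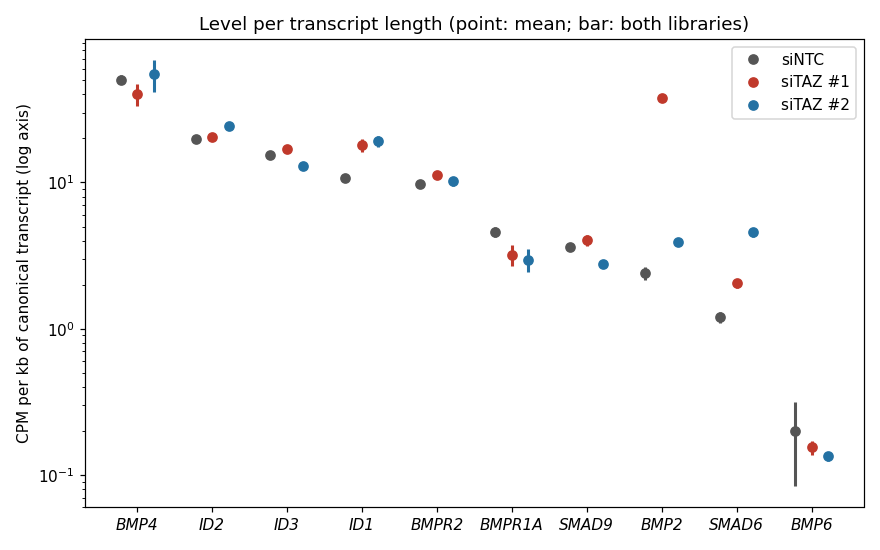
Mean CPM per kb of canonical transcript (points, log axis) of the 10 genes in siNTC, siTAZ #1 and siTAZ #2, with bars from the lower to the higher library and the genes ordered by their siNTC level. BMP2 rises from 2.39 to 38.0 CPM per kb with siTAZ #1 and reaches the level of BMP4.

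The other genes of the pathway were taken from lists of 11 ligands, 9 receptors and co-receptors, 3 SMADs and 8 target genes, of which 20 of 31 could be tested. With siTAZ #1, 4 of the 20 rose and 2 fell, against 10.8% and 9.78% of all genes tested. With siTAZ #2, 5 rose and 1 fell, against 14.1% and 14.4% of all genes. The median over these 20 was 0.28 and 0.11 on the log2 scale. SMAD5, a signal-transducing SMAD of the BMP branch, went from 31.3 and 31.6 CPM to 105 and 114 CPM with siTAZ #1 and to 112 and 93.0 CPM with siTAZ #2 (log2 fold change 1.80, SE 0.12, FDR 0.00098, and 1.70, SE 0.12, FDR 0.00080). Its partner SMAD1 and the common SMAD4 did not pass the threshold, at log2 fold changes of 0.24 and 0.07 for SMAD1 and of -0.28 and -0.07 for SMAD4.

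Of the 8 other targets, 7 were tested, and with each siRNA 1 rose and 0 fell. Over all genes tested, 10.8% rose with siTAZ #1 and 14.1% with siTAZ #2. Among the other targets, SMAD7, the second inhibitory SMAD, which TGF-β induces as well, followed SMAD6. It was at 14.2 and 10.3 CPM with siNTC, 22.1 and 19.7 CPM with siTAZ #1 and 38.2 and 48.1 CPM with siTAZ #2, with all siTAZ libraries above siNTC. For SMAD7 the log2 fold change after siTAZ #1 was 0.77 (SE 0.21, FDR 0.051), which passed the threshold in 9 of 19 alternatives (0.55 to 1.00). With siTAZ #2, SMAD7 rose by 1.81 (SE 0.21, FDR 0.0029), and it differed between the siRNAs (log2 difference -1.04, SE 0.21, FDR 0.015). MSX1, a homeobox gene, rose with siTAZ #1 (log2 fold change 2.17, SE 0.32, FDR 0.0085), and HEY1, which Notch also induces, differed between the siRNAs (log2 difference 2.91, SE 0.60, FDR 0.017). HEY1 counts were low, at 13 and 7 with siNTC, 43 and 65 with siTAZ #1, and 9 and 3 with siTAZ #2. Its log2 fold changes against siNTC, 1.89 and -1.02, did not pass the threshold. Left-out libraries ended some of these calls, for MSX1 siNTC replicate 1 (FDR 0.075) or 2 (0.056), for HEY1 siTAZ #2 replicate 1 (0.051) or 2 (0.089), and for the SMAD7 difference siTAZ #2 replicate 2 (0.099). ID4 (1.03 and 0.55) and the decoy receptor gene BAMBI (0.01 and 0.57) had log2 fold changes with an SE of at least 0.52 and an FDR of at least 0.25. MSX2 (0.72, FDR 0.17, and -0.20, FDR 0.69) and ATOH8 (0.03, FDR 0.97, and -1.12, FDR 0.093) did not pass the threshold with either siRNA.

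The receptors and ligands outside the 10 genes moved in both directions. ACVR1, the type I receptor ALK2, rose with both siRNAs (log2 fold change 0.51, FDR 0.022, and 0.62, FDR 0.0089). ENG and ACVRL1, the co-receptor and type I receptor known from vessels, rose with siTAZ #2 (0.70, FDR 0.0067, and 0.69, FDR 0.024), and ENG differed between the siRNAs (log2 difference -0.89, FDR 0.0032). The summed level of the 6 endothelial markers, mostly TEK, was 42.4 to 42.5 CPM with siNTC, 46.6 to 47.4 CPM with siTAZ #1 and 26.2 to 31.3 CPM with siTAZ #2. The lower sum with siTAZ #2 is that of TEK (log2 fold change -0.67, FDR 0.013). VWF went the other way without passing the threshold (0.83, FDR 0.42, and 1.52, FDR 0.14). PECAM1, CDH5, KDR and EMCN did not pass the filter on low counts. The co-receptor gene RGMB fell with both (-0.84, FDR 0.0068, and -0.81, FDR 0.0054), and the type II receptor gene ACVR2A differed between the siRNAs (log2 difference 0.85, FDR 0.026). Of the ligands, GDF5 fell 6.34-fold with siTAZ #1 (from 88.9 and 99.1 CPM to 13.9 and 15.7 CPM, log2 fold change -2.67, SE 0.13, FDR 0.00062), while it was at 84.1 and 77.0 CPM with siTAZ #2. BMP5, from 2.03 and 1.39 CPM, rose with siTAZ #1 to 4.32 and 4.63 CPM (log2 fold change 1.39, SE 0.33, FDR 0.035) and was at 1.92 and 1.51 CPM with siTAZ #2. The BMP5 call was lost in 8 of 19 alternatives, with an FDR of 0.094 and 0.17 without siNTC replicate 1 or 2, 0.10 without siTAZ #1 replicate 2, and 0.061 and 0.062 without siTAZ #2 replicate 1 or 2. The ACVR2A difference was lost in 8 of 19 (FDR up to 0.19), including the fits without siNTC replicate 1 or 2, siTAZ #1 replicate 2, or siTAZ #2 replicate 1 or 2. Without siNTC replicate 1 or 2, ACVR1 was lost for both siRNAs (FDR 0.11 and 0.16 with siTAZ #1, 0.058 and 0.087 with siTAZ #2), ACVRL1 (0.096 and 0.16) and ENG (0.070 and 0.069) were lost for siTAZ #2, and RGMB was lost for siTAZ #1 (0.064 and 0.066). For siTAZ #2, RGMB missed the threshold when siNTC replicate 2 was left out (FDR 0.0504). Leaving out siTAZ #2 replicate 2 also ended the siTAZ #2 calls of ACVR1, ACVRL1 and ENG, and leaving out siTAZ #2 replicate 1 that of ACVRL1.

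**Figure D4:**
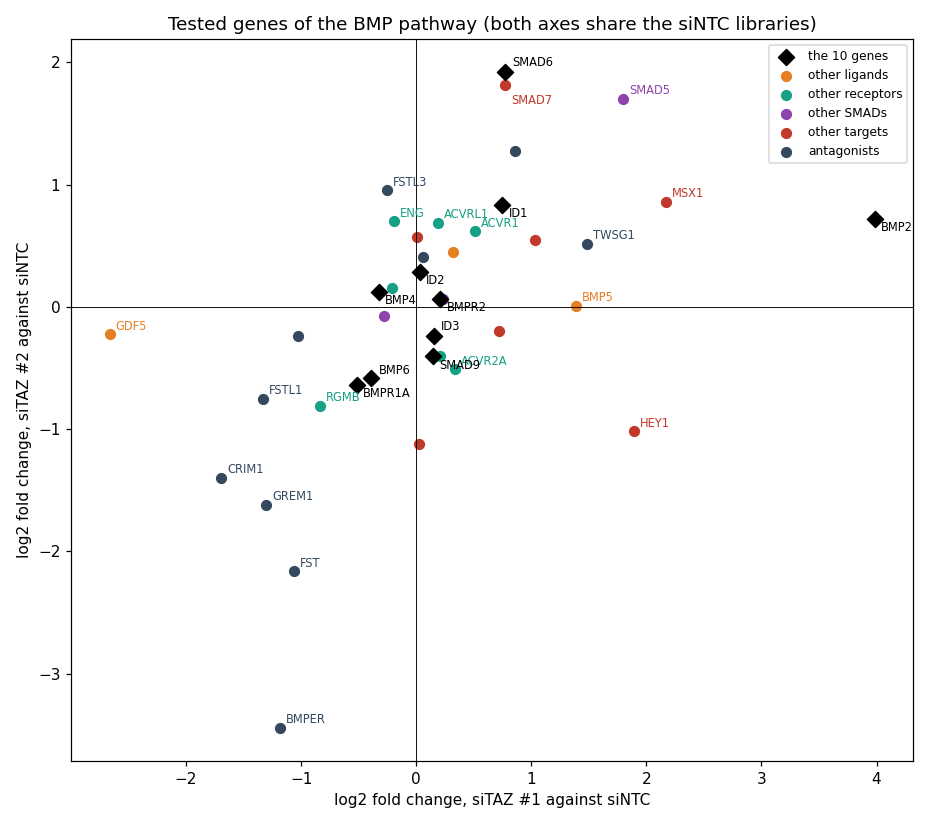
Log2 fold change with siTAZ #1 (horizontal axis) and with siTAZ #2 (vertical axis) for the 10 genes (black diamonds) and the other tested BMP ligands, receptors, SMADs, targets and antagonists (circles), with names for the 10 genes and for those past an FDR of 0.05 in any comparison. Both axes share the siNTC libraries, BMP2 lies farthest to the right at 3.99 and 0.72, and FST, GREM1, CRIM1 and FSTL1 lie in the lower left.

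Of 17 antagonists and extracellular modulators, 10 were tested. With siTAZ #1, 4 fell and 1 rose, against 9.78% and 10.8% of all genes tested. With siTAZ #2, 5 fell and 2 rose, against 14.4% and 14.1% of all genes. GREM1 (gremlin 1), FST (follistatin), FSTL1 and CRIM1 fell with both siRNAs, with log2 fold changes of -1.30, -1.06, -1.33 and -1.70 with siTAZ #1 and of -1.62, -2.16, -0.75 and -1.40 with siTAZ #2. The study chose these 4 genes and RGMB as lower with both siRNAs on these libraries, so their direction here is not independent evidence. For GREM1, the study also reports qRT-PCR in HFL-1 cells that bore out its sequencing result. The modulator BMPER fell with siTAZ #2 (log2 fold change -3.44, SE 0.55, FDR 0.0075), on 6 and 14 counts in the siTAZ #2 libraries, with a range of -4.42 to -2.82 over the alternatives. FSTL3 rose with siTAZ #2 (0.95, SE 0.14, FDR 0.0063). Both calls were lost without siNTC replicate 2 (FDR 0.057 for BMPER, 0.064 for FSTL3). TWSG1, a modulator that can either block or aid BMP signaling, rose with both siRNAs, from 187 and 176 CPM to 469 and 543 CPM with siTAZ #1 and to 276 and 243 CPM with siTAZ #2 (log2 fold change 1.48, SE 0.11, FDR 0.0013, and 0.52, SE 0.11, FDR 0.019). The TWSG1 call with siTAZ #2 was lost in 5 of 19 alternatives (FDR up to 0.14), among them those without either siNTC or either siTAZ #2 library. FSTL1 with siTAZ #2 was lost in 3, without either siNTC library or without siTAZ #2 replicate 1 (FDR up to 0.063), and the calls of GREM1, FST and CRIM1 against siNTC held in all 19.

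**Figure D5:**
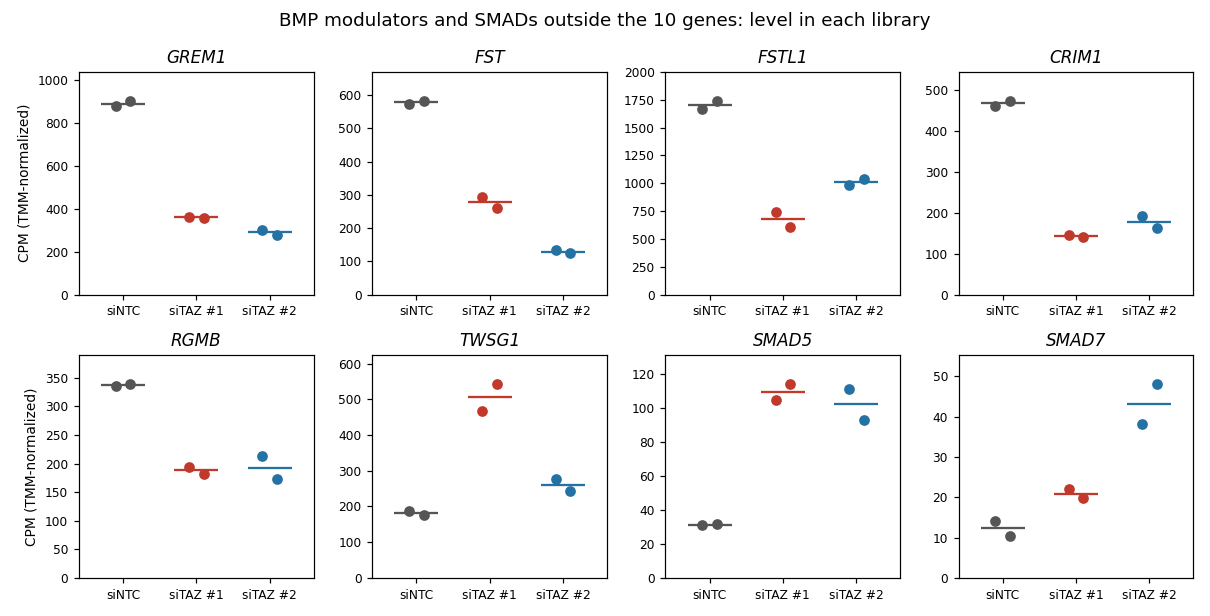
TMM-normalized CPM in each library (points, replicate 1 on the left, line at the group mean, linear axis from 0) of GREM1, FST, FSTL1, CRIM1, RGMB, TWSG1, SMAD5 and SMAD7. The first 5 genes lie lower, and TWSG1, SMAD5 and SMAD7 higher, in all 4 siTAZ libraries than in both siNTC libraries.

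Side by side, siTAZ #2 left GREM1 and FST at lower levels than siTAZ #1 did (siTAZ #1 minus siTAZ #2 0.31 on the log2 scale, FDR 0.032, and 1.10, FDR 0.0013), SMAD6 and SMAD7 were higher with siTAZ #2, BMP2 was higher with siTAZ #1, and no difference in ID1 between the siRNAs passed the threshold. The GREM1 difference was lost in 9 of 19 alternatives (log2 0.18 to 0.38, FDR up to 0.61), among them those without either siNTC or either siTAZ #2 library, while the FST difference held in all 19. Other antagonists had the opposite order. FSTL1 (log2 difference -0.58, FDR 0.015, lost in 6 of 19 alternatives) and FSTL3 (-1.21, FDR 0.0030, held in all 19) were lower with siTAZ #1. CRIM1 (-0.30, FDR 0.075) did not pass. Of the 10 tested antagonists and modulators, 4 (GREM1, FST, TWSG1 and BMPER) were higher and 2 lower with siTAZ #1 than with siTAZ #2. With 2 siRNAs, no relation between the loss of antagonists and the level of a target can be tested.

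Inside the cell, 6 inhibitors of BMP signaling were tested. With siTAZ #1, 2 rose and 2 fell, against 10.8% and 9.78% of all genes tested. With siTAZ #2, 1 rose and 0 fell, against 14.1% and 14.4% of all genes. LEMD3 did not pass the threshold (log2 fold change 0.61, FDR 0.15, and 0.37, FDR 0.33), though its 4 siTAZ libraries lay above both siNTC libraries. With siTAZ #1, TOB1 (0.99, FDR 0.0067) and SKI (0.75, FDR 0.0090) rose, and the ubiquitin ligase genes SMURF1 (-0.51, FDR 0.022) and SMURF2 (-0.36, FDR 0.040) fell, on the log2 scale. SMURF2 rose with siTAZ #2 (0.37, FDR 0.029), while SMURF1 was at -0.05, SKI at 0.0015 and TOB1 at 0.40 there, none of them past the threshold. FKBP1A, whose protein keeps type I receptors inactive, differed between the siRNAs (log2 difference -0.36, FDR 0.023). Of the E protein genes whose products ID proteins bind, TCF12 fell with both siRNAs (-0.35, FDR 0.021, and -0.71, FDR 0.0019), and TCF4 fell with siTAZ #1 (-0.79, FDR 0.0056) and rose with siTAZ #2 (0.44, FDR 0.024). TCF3 did not pass the threshold (0.38, FDR 0.12, and 0.09, FDR 0.68). Of these calls, SMURF2 was lost in 10 of 19 alternatives for siTAZ #1 (FDR up to 0.57, any library but siTAZ #1 replicate 2 being enough when left out) and in 6 for siTAZ #2 (FDR up to 0.19). For siTAZ #1, SMURF1 and TCF12 were lost in 4 each (FDR up to 0.39 and 0.58), SKI and TOB1 in 3 each and TCF4 in 2, in each case without siNTC replicate 1 and, except for TCF4, without siNTC replicate 2. TCF4 was lost in 5 for siTAZ #2, as SMURF2 was, without either siNTC or either siTAZ #2 library. The FKBP1A difference was lost in 6 (FDR up to 0.54), among them those without either siNTC library or without siTAZ #2 replicate 2.

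The genes whose log2 CPM followed ID1 most closely over the 6 libraries were CYTH2, PAMR1, EPHA2, LINC00256A and PCDHGB2, with Pearson r from 0.991 to 0.998. Among the 10 genes, SMAD6 had an r of 0.85 with ID1, ID2 of 0.60, BMPR2 of 0.59, BMP2 of 0.53 and BMP4 of 0.08, while BMP6 (-0.16), ID3 (-0.26), SMAD9 (-0.40) and BMPR1A (-0.92) had negative values, as descriptions with no test. The 6 libraries fall into 3 groups, so these values mostly describe the order of the groups.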

How the data were processed

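Total RNA of HFL-1 cells, 48 h after transfection, was sequenced on an Ion Proton, in 2 replicates for each of siNTC, siTAZ #1 and siTAZ #2. The authors aligned reads to hg19 with TMAP, counted them with HTSeq 0.6.1, per the submitters' processing notes, and deposited raw counts by gene symbol. The strand setting is not given in the sources used here. From 23368 entries, 13 with a date in place of a symbol were left out (0.0458% to 0.0506% of a library). Replicates differed by more than sampling noise (mean chi-square per gene 5.53 for siNTC, 11.9 for siTAZ #2 and 93.8 for siTAZ #1). These values include the genes of the stretch that is depleted in siTAZ #1 replicate 2.

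Counts were filtered with filterByExpr, scaled with TMM factors and entered in edgeR 4.0.16 (quasi-likelihood test, R 4.3.3), in a single fit with group as the only term, with Benjamini-Hochberg adjustment over 14053 genes. SEs were derived from the F statistic, and 95% intervals cover the spread estimated by the fit. The tests were checked on simulated data with 200 genes changed 2-fold in 13776 genes. Of the 200, 90% were found for siTAZ #1 against siNTC and 91% for siTAZ #2 against siNTC. The simulation gave all genes a single dispersion of 0.0165, that without the depleted stretch, and depleted no library. It changed only genes above a minimum level and outside the stretch. The fit of the real libraries had 0.0807, so these shares do not give its power. Positions and transcript lengths came from GENCODE on GRCh37 (21477 symbols matched), and promoter windows from RefSeq.

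The 10 genes and the gene lists were chosen with earlier results of these data known, and 1 gene of the lists was left out of the list counts. Named genes are the 10 genes, WWTR1, listed pathway genes past FDR 0.05 in any comparison, 11 further listed genes whatever their result (such as SMAD1, ID4 and GREM1), and the 5 genes most like ID1. MSX2, ATOH8, LEMD3 and TCF3 are given besides, so that each tested target, inhibitor and E protein gene of the lists is named. Alternatives were DESeq2 1.42.0, edgeR's exact test, scaling by RLE, upper quartiles or library totals, no filter, a stricter filter (mean count 50 or more), fits of only the 4 libraries compared, the replicate number as a block, FDR 0.1, and fits that omit each library in turn or the depleted stretch of chromosomes 22 to Y. Offsets for GC content (known for 94.6% of genes tested) and transcript length and a crossed block were added after seeing the data.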

Additional observations from a re-analysis of the deposited data

Results flagged for a closer look

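The effects of the siRNAs differed by a direct test for 3 of the 10 genes. Of all 14053 genes tested, 4020 differed in this comparison (15.2% higher and 13.4% lower with siTAZ #1), a share near that of the 10 genes. The log2 difference of siTAZ #1 against siTAZ #2 was 3.27 for BMP2 (FDR 0.00050), -1.15 for SMAD6 (FDR 0.010) and 0.55 for SMAD9 (FDR 0.045). BMP2 was higher in both siTAZ #1 libraries than in any siTAZ #2 library, SMAD6 was lower and SMAD9 was higher.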

How the results depend on the processing

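The values of the 10 genes were recomputed under 19 alternatives, which gave 565 values over the 3 comparisons. Of these, 502 kept their direction and side of the threshold, 41 lost the call, 11 gained it and 11 turned in sign. The number of the 10 genes past FDR 0.05, 3 in each comparison, ranged from 1 to 4 when 1 library was left out, in each of the 3 comparisons. It was 1 for siTAZ #1 without either siNTC or either siTAZ #2 library, 1 for siTAZ #2 without siNTC replicate 2 or either siTAZ #2 library, and 1 for the direct comparison without siTAZ #2 replicate 2. For siTAZ #1 it was 1 with the exact test, without the filter, with 4 libraries in the fit and with the replicate block, where only BMP2 passed. Over all genes, 569, 1229, 1018 and 868 rose with siTAZ #1 in these 4 settings, against 1515 in the main fit. The replicate numbers did not pair the samples (correlation of deviations -0.0063 and 0.011 with siNTC, -0.18 between the siTAZ groups), and under the block 2 genes passed for siTAZ #2. The crossed block, added after seeing the data, left 3 past the threshold for each siTAZ against siNTC. ID2 passed for siTAZ #2 only with the GC offset (0.38, FDR 0.040). The cause was not tested for any of these.

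Sign changes concerned genes with low counts or with a log2 value near 0 in the main fit. For BMP4 and BMPR1A the counts were not low, but replicates stood far apart. Leaving out 1 library moved siTAZ #1 values from -1.06 to 0.84 for BMP6 and from -0.76 to 0.64 for BAMBI. For siTAZ #2 the ranges were -0.32 to 0.44 for BMP4, -1.26 to 0.64 for BMP6, -0.066 to 0.16 for BMPR2, -0.26 to 0.29 for BMP5, -0.14 to 0.012 for SMURF1, -0.049 to 0.023 for SKI and -0.42 to 1.13 for ID4. For the siRNA difference they were -0.15 to 0.40 for BMPR1A, -0.23 to 0.055 for ID1, -0.17 to 0.13 for RGMB, -0.020 to 0.24 for SMAD5 and -0.10 to 1.44 for ID4. BAMBI with siTAZ #1 turned to -0.016 with the exact test and with upper quartiles, to -0.024 with the block, to -0.017 with the crossed block, to -0.013 without the filter and to -0.0098 with 4 libraries. BMP5 with siTAZ #2 turned to -0.0014 with DESeq2, -0.0017 with RLE, -0.014 without the filter and -0.076 with the GC offset. SKI with siTAZ #2 turned to -0.0080 with DESeq2, -0.0016 with the exact test, -0.0083 with RLE, -0.021 without the filter, -0.0017 with 4 libraries, -0.0013 with the crossed block, -0.22 with the GC offset and -0.0060 with the length offset. The GC offset also turned SMURF1 (0.054) and SMAD4 (0.0042) with siTAZ #2 and the siRNA differences of BMPR1A (-0.026), BMPR2 (-0.00077), ID1 (0.052) and SMAD5 (-0.055). BMP6, with 5 to 19 counts a library, is limited by depth.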
